A study of Rattus norvegicus with 56 samples.

Results

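Solute carriers are the membrane transporters that move ions, sugars, amino acids, organic acids, vitamins and metals across the plasma membrane and the membranes of organelles. The genes described here are the solute carriers that were expressed in either of 2 distal segments of the rat nephron, the thick ascending limb of the cortex (cTAL) and the collecting duct of the cortex (CCD). They were chosen by measured level. A gene was taken if its symbol starts with Slc and a number and its mean in the sham animals of the 30 min experiment was at least 5 TPM (transcripts scaled for gene length and library total) in CCD or in cTAL. The 6 carriers that define other cells or the segments themselves, Slc12a1, Slc4a1, Slc26a4, Slc34a1, Slc5a2 and Slc22a6, were left out. This gave 162 genes of the 362 with such a symbol and of the 32883 genes in the tables. They carry 161 distinct symbols, because Slc40a1, the iron exporter ferroportin, is listed at 2 loci. Of the 162, 109 reached the level in both segments, 31 in CCD alone and 22 in cTAL alone, and 4 are named for a carrier without being one (the scaffold genes Slc9a3r1 and Slc9a3r2, and Slc4a1ap and Slc7a6os).

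All animals were male Sprague-Dawley rats of 120 to 160 g. In the obstructed group the left ureter was tied off near the renal pelvis (unilateral ureteral obstruction, UUO), and in the sham group the same operation was done without the tie. Segments were dissected from the kidney 30 min or 3 h later, and each arm at each time holds 4 numbered replicates. A CCD number has 2 libraries and a cTAL number 1. The libraries of a number were counted as 1 animal, and since the labels say no more about the source of each number, p-values measure the spread between the numbered samples. A dissected segment is a mixture, so fewer cells of a type and less RNA per cell cannot be told apart. The collecting duct holds principal cells, which take up sodium and water, and several kinds of intercalated cell, which exchange bicarbonate and chloride. The thick ascending limb reabsorbs salt without water and depends on mitochondria for the work of the sodium pump. Carriers of the Slc25 family sit in the inner mitochondrial membrane, those of the Slc35 family mostly supply the Golgi with nucleotide sugars and sulphate donors, and the Slc16 family moves lactate and other monocarboxylates.

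Principal cell markers (8 genes) summed to 15907 to 18653 TPM in CCD sham and 91.2 to 618 TPM in cTAL sham at 3 h, and thick ascending limb markers (5 genes) to 35009.9 to 60475 TPM in cTAL sham, so the dissected segments carried the markers of their names. In CCD sham the thick ascending limb sum was 56.4 to 510.1 TPM at 30 min. At 3 h it was 3926 and 4312 TPM in CCD sham replicates 1 and 3 and 9794 TPM in CCD UUO replicate 4, and 61.5 to 206 TPM in the other 5 CCD replicates. The depth of the libraries is unknown, since it cannot be had from TPM. A library held 8744 to 11916 genes at 1 TPM or more at 30 min, and 9585 to 10750 in the 3 h experiment.

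In sham segments at 30 min the mitochondrial carriers had the highest levels. These values chose the genes, so they are given as a description. TPM are per transcript length and can be compared between genes within a table. Slc25a5, an ADP/ATP exchanger of the inner mitochondrial membrane, had means of 3668 ± 315 TPM in CCD and 5331 ± 221 in cTAL (SD, n = 4, as for all such values below). The mitochondrial phosphate carrier Slc25a3 followed with 1844 ± 131 and 1425 ± 307 TPM, and the other ADP/ATP exchanger Slc25a4 with 525 ± 29.5 and 796 ± 65 TPM. These were the 3 highest in both segments. The 35 mitochondrial carriers together summed to 7669 TPM (CCD) and 8896 TPM (cTAL), more than the sum of any other family group. Slc25a11 (2-oxoglutarate), Slc25a10 (dicarboxylates) and Slc25a39 (mitochondrial glutathione) were also among the 10 highest of both segments, with means of 162 to 361 TPM. So was Slc3a2, the heavy chain that carries several amino acid transporters to the membrane, with 242 ± 41.8 TPM (CCD) and 320.3 ± 116 TPM (cTAL). Slc35a4 of the Golgi family, at 129 ± 7.2 TPM, and the mitochondrial carrier Slc25a35, at 89.3 ± 36.1 TPM, were among the 10 highest of cTAL. In CCD the list was completed by Slc44a4, a choline-like carrier, at 203 ± 50.7 TPM, Slc48a1, a haem transporter, at 202 ± 33.3 TPM, and Slc4a9.

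Other carriers were at a high level in 1 segment and near 0 in the other. Slc4a9, an anion exchanger of the basolateral membrane of type B intercalated cells, was at 225, 186, 342 and 389 TPM in the CCD sham animals, against 0.02 to 0.29 TPM in cTAL. Slc9a4, a sodium-proton exchanger, stood at 42.7 to 70.1 TPM in CCD, against 0.02 to 0.34 TPM in cTAL. Slc16a3, the lactate exporter MCT4, ranged over 18.9 to 50.3 TPM in CCD, against 0.81 to 1.08 TPM in cTAL. The values of these 3 genes did not overlap between the segments, but each was chosen through its CCD level alone, so nothing is read from this. The reverse pattern held for the glucose carriers Slc2a4 (GLUT4), at 52.4 to 70.6 TPM in cTAL and 0.5 to 1.05 TPM in CCD, and Slc5a1 (SGLT1), at 32.6 to 78.8 TPM against 0.17 to 0.525 TPM. The sodium-proton exchanger Slc9a3 (NHE3), which takes up sodium and secretes acid at the luminal membrane, was at 25.8 to 62.3 TPM in cTAL and 0.04 to 0.435 TPM in CCD. Slc34a2, a sodium-phosphate cotransporter, was at 17.8 to 88.6 TPM in cTAL and 0.03 to 0.315 TPM in CCD. Some monocarboxylate carriers differed between the segments, and others, such as Slc16a11 (10.3 TPM in CCD and 11.9 TPM in cTAL), did so little. Slc16a7 (MCT2), a high-affinity carrier of lactate and pyruvate, was the fourth highest gene of cTAL at 444 ± 121 TPM, and was at 153 ± 40.4 TPM in CCD. Slc16a12, a creatine carrier, was at 89 ± 21 TPM in cTAL and 3.47 ± 0.79 TPM in CCD.

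**Figure D1:**
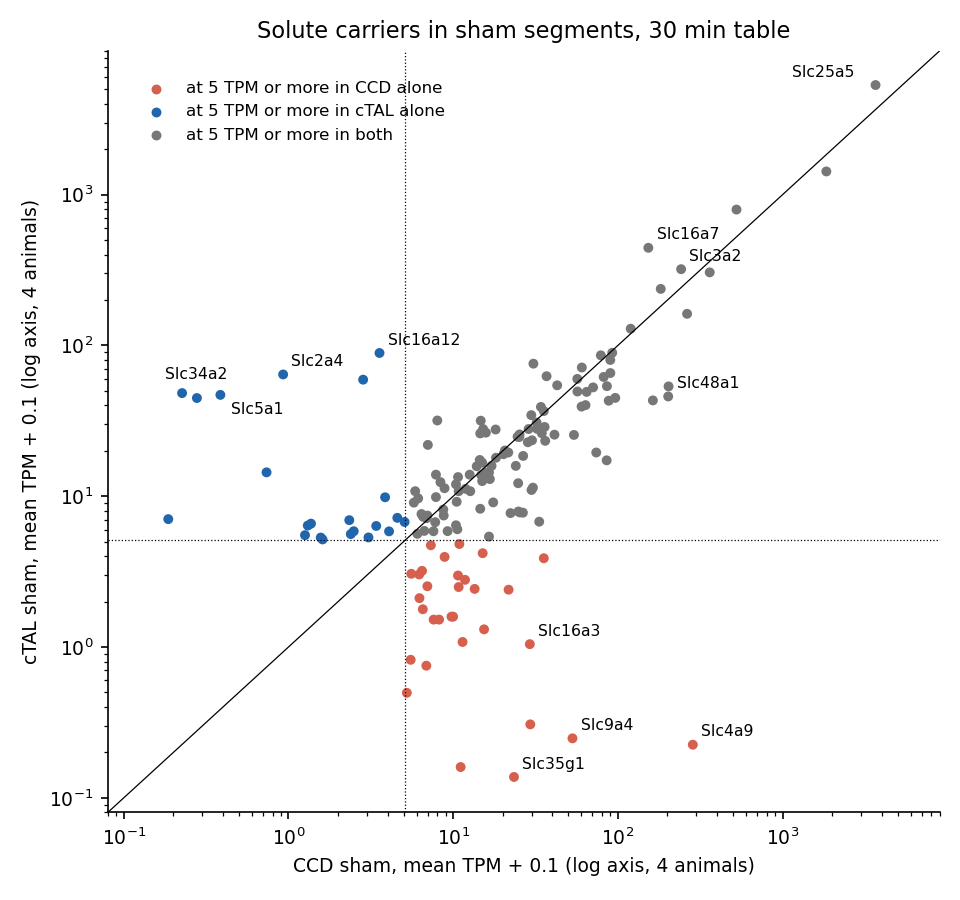
Mean TPM of the 162 genes in CCD sham (horizontal axis) and cTAL sham (vertical axis) at 30 min, 4 animals each, both on log axes after adding 0.1. Dotted lines mark the level of 5 TPM that chose the genes and the solid line equal levels. Slc4a9, Slc9a4 and Slc35g1 lie low on the right, and Slc34a2, Slc5a1 and Slc2a4 high on the left, far from the line.

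The threshold cut through a continuous range of levels. Just inside it were Slc23a1 (1.51 TPM in CCD and 5.07 TPM in cTAL), Slc8a1 (5.13 and 0.397 TPM) and Slc9a9 (1.47 and 5.22 TPM). Just outside were Slc35e3 (4.91 and 1.58 TPM) and Slc38a9 (3.85 and 4.73 TPM).

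The sham animals of the 3 h experiment did not take part in the choice, so the segments could be tested there. The test was limma on CCD minus cTAL of log2(TPM + 1) within each numbered animal, adjusted by the Benjamini-Hochberg method over all genes tested, and a gene was called at an adjusted p under 0.05. Of the 162 genes 161 were tested (Slc8a1 was too low), and 53 were called higher and 23 lower in CCD, 32.9% and 14.3%, against 27.7% and 10.4% of all 10521 genes tested. After median-of-ratios rescaling, which moved the median of all genes from 0.30 to 0.02, the split was 36 higher and 34 lower, and that of all genes went from 2916 higher and 1099 lower to 1568 and 1772. Of the 31 genes that had been at 5 TPM in CCD alone 30 were tested, and 23 were called higher in CCD and 1 in cTAL. Of the 22 that had been at 5 TPM in cTAL alone, 15 were called higher in cTAL and 0 in CCD. Of the 109 found in both, 30 were called higher in CCD and 7 in cTAL.

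The 6 largest differences in favour of CCD were those of Slc4a9, Slc9a4, Slc16a3, Slc35g2, Slc43a1 and Slc38a3. Slc4a9 was at 188, 226, 199.7 and 313 TPM in CCD and at 4.31, 0, 0.76 and 0.44 TPM in cTAL (log2 difference 6.87, SE 0.44, adjusted p = 0.00017). Slc9a4 was at 35.3 to 58.6 TPM against 0 to 0.78 TPM (5.20, SE 0.25, adjusted p = 7.25e-05), and Slc16a3 at 17.3 to 51.5 TPM against 0 to 1.36 TPM (4.55, SE 0.24, adjusted p = 8.46e-05). Slc35g2, a membrane protein of the Slc35 family, differed by 3.93, Slc43a1 (LAT3), which carries large neutral amino acids, by 3.17, and Slc38a3 (SNAT3), a glutamine carrier, by 2.80 on the log2 scale. The largest differences in favour of cTAL were those of Slc2a4 (-3.92), Slc5a1 (-3.34), the glutamate carrier Slc1a1 (-2.99), Slc16a12 (-2.87), Slc34a2 (-2.85) and Slc9a3 (-2.57). No animal's values overlapped between segments in any of these 12, which were picked as the largest differences. The same held for 71 of the 161 genes tested and for 4072 of all 10521. All 12 calls held when each numbered animal was left out in turn. Slc2a4 in CCD sham was at 6.12 and 4.4 TPM in replicates 1 and 3 and at 0.805 and 0.485 TPM in replicates 2 and 4, and the first pair are the replicates with thick ascending limb sums of 3926 and 4312 TPM. The part of that material in the values was not tested. Without the CCD libraries above 5000 TPM of Umod, the abundant secreted protein of the thick ascending limb, 45 genes were called higher and 23 lower in CCD. Of all genes 2556 were then called higher and 1078 lower.

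After 30 min of obstruction none of the 162 genes was called in either segment. In CCD 0 of 156 tested were called, against 0.0264% of all genes tested, and in cTAL 0 of 154, against 0.0091%. limma without the trend of variance on level also called 0 in both. At an unadjusted p under 0.05 there were 34 in CCD, against 1789 of all 11369 genes, and 2 in cTAL, against 250 of 10993. The sham values of these contrasts chose the genes, so nothing is read from these counts or from the median change, which was -0.44 in CCD (all genes -0.31) and -0.03 in cTAL (all genes -0.07). The 2 CCD libraries of a number differed over these genes by a median of 0.12 to 0.47 on the log2 scale in every pair but that of CCD UUO replicate 2 at 30 min, where it was 1.47. With the first library of each CCD number alone 16 of the carriers were called lower and 0 higher, beside 949 lower and 7 higher among all genes. With the second alone 0 carriers and 1 gene of all were called. Leaving out only the second library of CCD UUO replicate 2 gave 0 carriers called, beside 1 higher and 2 lower among all genes. The smallest adjusted p in CCD was 0.235, for Slc2a8 (GLUT8), at 6.68 to 12.8 TPM in sham and 1.11 to 4.94 TPM in UUO, and for Slc22a17, at 6.14 to 9.03 and 2.2 to 3.74 TPM. The groups did not overlap for either gene, which also held for 996 of all 11369 genes tested. These genes were chosen through their CCD sham level alone, which favours a fall, so nothing is read from this. Both were singled out after their values were seen.

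After 3 h of obstruction 7 of 153 tested genes were higher and 21 lower in CCD, 4.58% and 13.7%, against 5% and 8.04% of all genes tested. In cTAL 10 of 152 were higher and 8 lower, 6.58% and 5.26%, against 4.06% and 7.64% of all genes. Of these 10, Slc22a8, Slc16a3, Slc7a1 and Slc25a33 passed the filter on low values only with obstructed values, which favours a rise. The median change of the tested genes was -0.20 in CCD and -0.05 in cTAL on the log2 scale, and that of all genes was -0.14 and -0.12. Median-of-ratios rescaling brought the median of all genes to -0.01 and 0.01, and the splits to 11 higher and 14 lower in CCD and 11 higher and 5 lower in cTAL. The split of all genes went from 526 higher and 847 lower to 701 and 455 in CCD, and from 407 and 766 to 493 and 410 in cTAL. In CCD the 9 genes too low to be tested were Slc11a1, Slc16a1, Slc2a13, Slc34a2, Slc35d1, Slc5a1, Slc8a1, Slc9a3 and Slc9a9, and in cTAL the 10 were Slc12a2, Slc25a24, Slc35g1, Slc35g2, Slc43a1, Slc4a11, Slc6a17, Slc6a6, Slc8a1 and Slc9a4. Without the 3 CCD libraries above 5000 TPM of Umod, 9 were higher and 15 lower in CCD, beside 472 and 605 of all genes. Each comparison was refitted without each of its 8 replicates. The number of calls in CCD was 11 without sham replicate 2, 15 to 18 without sham replicate 1, 3 or 4 or UUO replicate 2 or 4, and 30 to 35 otherwise. In cTAL it was 7 to 10 without any 1 of the sham replicates or UUO replicate 2 or 4, and 12 to 17 otherwise. The calls of all genes moved too. Without sham replicate 2 they were 222 higher and 225 lower in CCD, and 202 and 255 in cTAL. Of the 28 calls in CCD 10 held in all 8 refits, and of the 18 in cTAL 6 did. No called gene changed direction in a refit. The arms did not overlap for 39 of the tested genes in CCD and 29 in cTAL. Over all genes they did not overlap for 2199 of 10530 and 1985 of 10023.

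**Figure D2:**
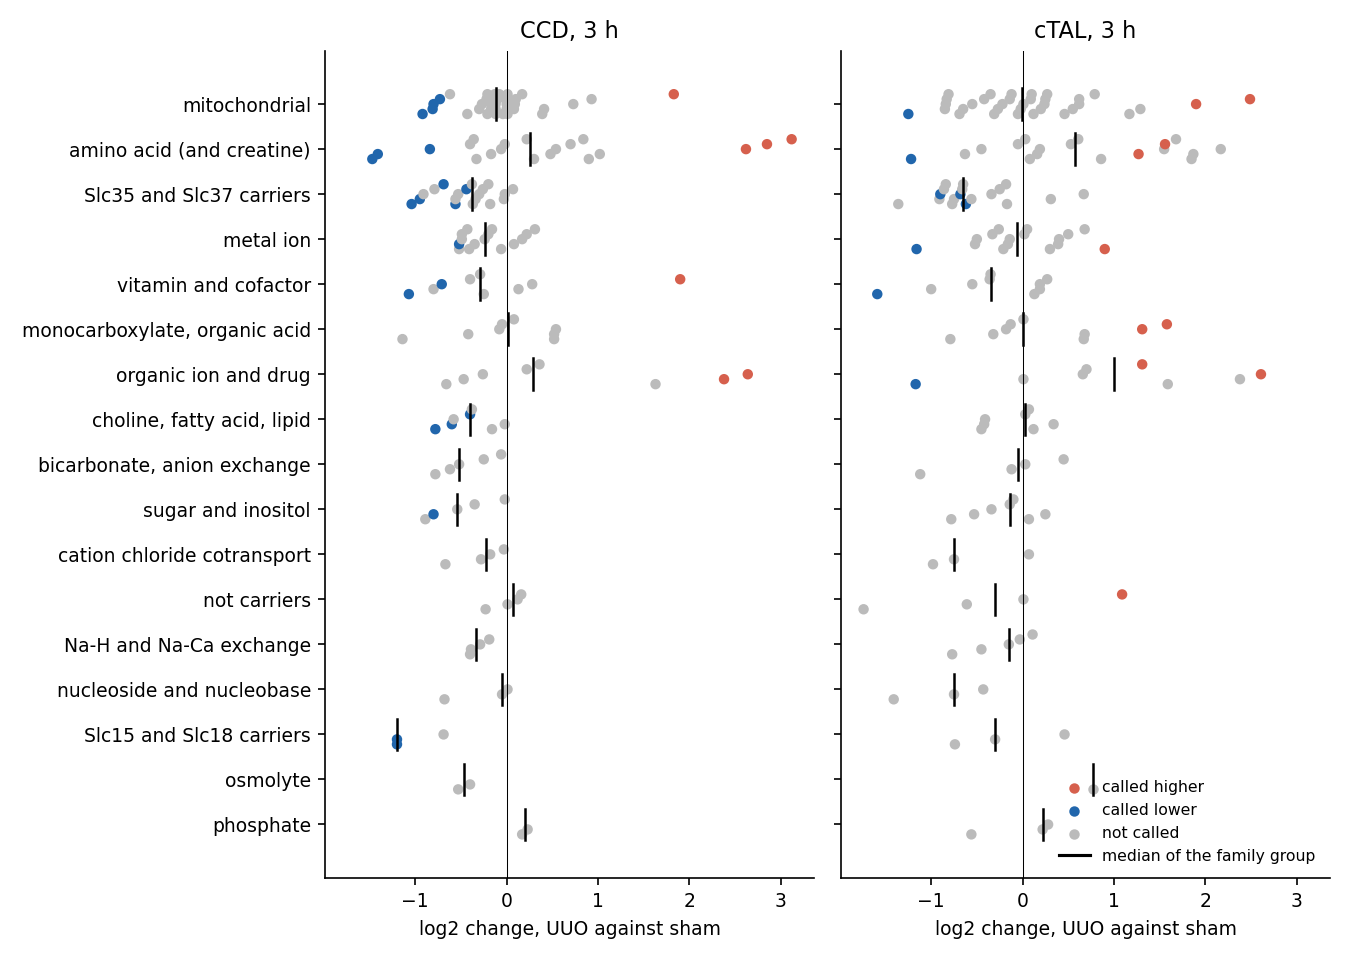
Log2 change of UUO against sham at 3 h for each tested gene, by family group, in CCD (left) and cTAL (right). Each point is a gene, red where called higher, blue where called lower and grey where not called, and black bars are group medians. The Slc35 and Slc37 group has its points mostly left of 0 in both segments, with medians of -0.38 and -0.65, where those of all genes were -0.14 and -0.12.

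Slc25a25 rose in both segments. It is an inner membrane carrier that exchanges ATP-magnesium for phosphate and is activated by calcium. In CCD it was at 2.79, 6.46, 3.54 and 3.13 TPM in sham and 19.6, 22.3, 12.2 and 12 TPM in UUO, and in cTAL at 2.16, 4.79, 2.05 and 3.82 TPM in sham and 13.4, 28.6, 30.6 and 18.7 TPM in UUO. All obstructed values lay above all sham values in both segments. The log2 change was 1.83 (SE 0.28, adjusted p = 0.00742) in CCD and 2.49 (SE 0.34, adjusted p = 0.00297) in cTAL, and both calls held in all 8 refits. At 30 min it was at 3.38 to 8.31 TPM in CCD UUO and 3.55 to 10.2 TPM in sham, and at 5.13 to 14.2 TPM in cTAL UUO and 6.82 to 7.16 TPM in sham, with no call. It was 1 of 7 rises in CCD and 1 of 10 in cTAL, and the only rise found in both segments.

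The genes that fell in both segments were 23.8% of the falls in CCD and 62.5% of those in cTAL, and Slc46a3, Slc35b2, Slc35b3 and Slc7a4 were among them. No gene was called in opposite directions. The same overlap was not counted over all genes, so these shares are not shown to be particular to the carriers. The transporters Slc35b2 and Slc35b3 bring PAPS, the sulphate donor for sulphation of proteins and glycans, into the Golgi. Slc35b3 was at 47.7, 40.8, 58.5 and 54.9 TPM in CCD sham and 28.3, 20.5, 30.9 and 17.9 TPM in CCD UUO (log2 change -1.04, SE 0.19, adjusted p = 0.0123). In cTAL it was at 28.4, 30, 34.6 and 31.6 TPM in sham and 16.9, 16.6, 14.2 and 17 TPM in UUO (-0.90, SE 0.17, adjusted p = 0.0121). The arms did not overlap in either segment. Slc35b2 stood at 97.8 to 104 TPM in CCD sham and 56.3 to 69.7 TPM in UUO (-0.69, SE 0.11, adjusted p = 0.00762), and at 69.1 to 90.7 and 41.2 to 53.3 TPM in cTAL (-0.68, SE 0.16, adjusted p = 0.0239). Its cTAL call was lost without sham replicate 2, sham replicate 4 or UUO replicate 2, with an adjusted p of at most 0.0788. The related Slc35b1, which brings ATP into the endoplasmic reticulum, fell in cTAL from 104 ± 10.6 to 67.2 ± 7.34 TPM (-0.62, SE 0.14, adjusted p = 0.023) and had a log2 change of -0.18 in CCD (adjusted p = 0.331). Its cTAL call was lost in 4 of 8 refits (up to 0.0671).

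Slc46a3, a carrier of the lysosomal membrane, fell from 14.9 to 22.2 TPM in CCD sham to 5.81 to 11.1 TPM in UUO, a log2 change of -1.07 (SE 0.22, adjusted p = 0.0157, and 0.0541 without sham replicate 2). In cTAL it was at 5.93, 11.2, 9.66 and 10.4 TPM in sham and 3.56, 1.56, 1.98 and 2.58 TPM in UUO (-1.59, SE 0.30, adjusted p = 0.0121), the largest fall among the genes called there. The cTAL arms did not overlap, nor did those of CCD, and the cTAL call held in every refit. Slc7a4, placed by sequence with the cationic amino acid carriers, was at 14.1 to 24.3 TPM in CCD sham and 7.71 to 14.2 TPM in UUO (-0.84, SE 0.22, adjusted p = 0.035), where the highest obstructed value passed the lowest sham value. In cTAL it was at 7.66 to 10.3 and 1.9 to 5.84 TPM (-1.22, SE 0.33, adjusted p = 0.04). Its calls were lost in 6 of 8 refits in CCD and 7 of 8 in cTAL, with adjusted p up to 0.0984 and 0.11.

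**Figure D3:**
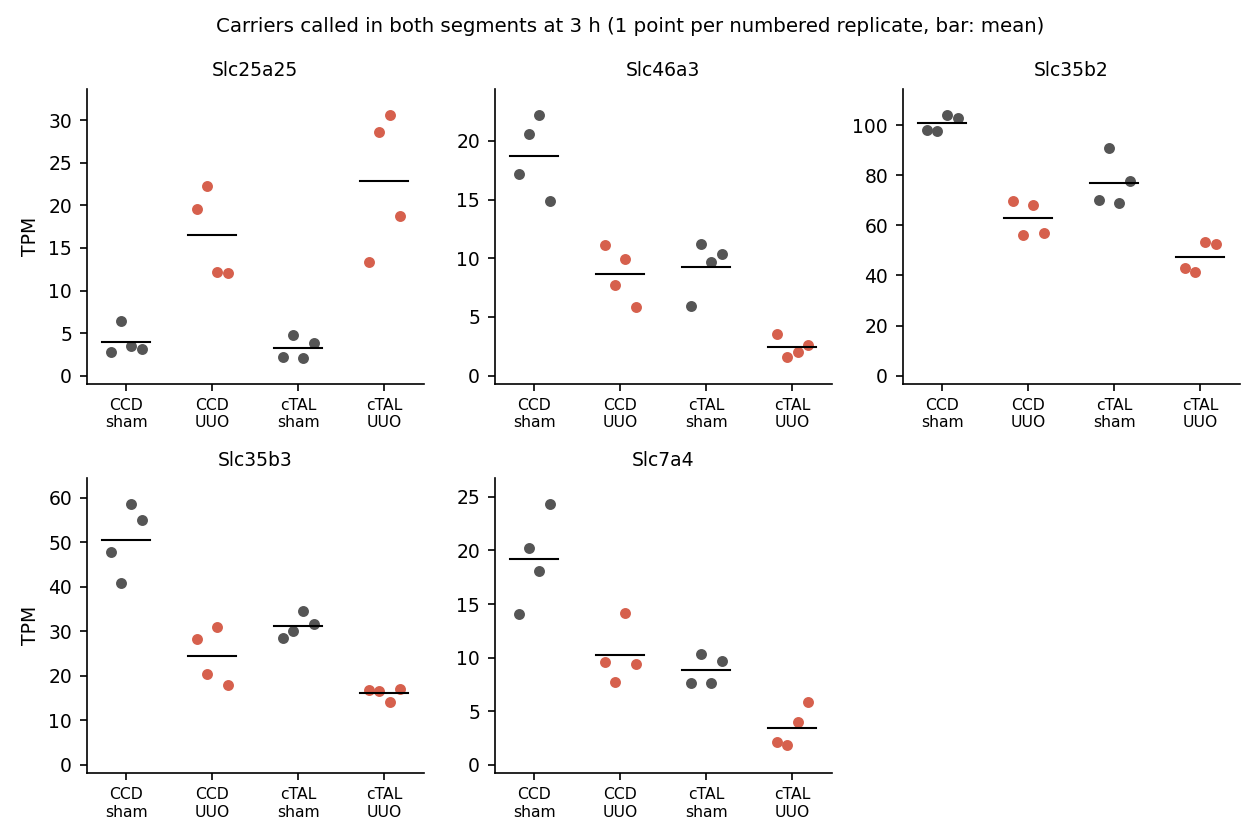
TPM at 3 h of Slc25a25, Slc46a3, Slc35b2, Slc35b3 and Slc7a4, called in both segments, by segment and arm, with 1 point per numbered replicate (dark grey sham, red UUO) and a bar at the mean. In cTAL no obstructed point of these 5 genes lies within the sham points, and in CCD only Slc7a4 has an overlap, 14.2 TPM in UUO against 14.1 TPM in sham.

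The other 6 rises in CCD were of carriers known from the proximal tubule, and the summed proximal tubule markers were higher in the same arm. Slc3a1 (rBAT), the heavy chain of the cystine transporter, was at 29.8, 6.22, 14.7 and 8.25 TPM in sham and 212, 95, 43 and 143 TPM in UUO (log2 change 2.85, SE 0.52, adjusted p = 0.0115). Its late proximal tubule partner Slc7a13, which carries acidic amino acids and cystine, was at 61.4, 8.6, 17.8 and 10.2 TPM in sham and 452, 175, 100.1 and 171 TPM in UUO (3.12, SE 0.58, adjusted p = 0.0123). In both genes the obstructed values lay above all sham values, and replicate 1 was the highest of its arm. The organic anion carrier Slc21a4 rose by 2.64 and the organic cation carrier Slc22a2 (OCT2) by 2.38 on the log2 scale (adjusted p = 0.0157 and 0.0177). The amino acid carrier Slc6a18 rose by 2.62 and the vitamin C carrier Slc23a1 by 1.90 (adjusted p = 0.0123 and 0.0334). The calls of Slc3a1, Slc7a13 and Slc6a18 held in all refits. That of Slc21a4 was lost without sham replicate 2 (adjusted p = 0.0527), that of Slc22a2 without sham replicate 2 or 4 (up to 0.0556) and that of Slc23a1 in 5 of 8 refits (up to 0.091).

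A sum of 9 proximal tubule markers was at 1014, 285, 486 and 194 TPM in CCD sham and 4174, 3318, 859 and 2992 TPM in CCD UUO at 3 h, and 6 of the 8 markers tested there rose and 0 fell. None of the 9 was at 0 in every animal. In cTAL the sum was 534 to 1399 TPM in sham and 1791 to 4944 TPM in UUO, with 4 of 8 tested markers higher. Of 18 tested carriers typical of the proximal tubule, a list of 24 of which 8 are among the 162, 7 rose and 0 fell in CCD, and 5 of 19 rose and 0 fell in cTAL. The medians of these lists were 1.36 and 2.06 on the log2 scale. The marker Lrp2, counted as a rise in both segments, and the listed carriers Slc17a3 (CCD) and Slc13a1 (cTAL) were low in sham. Each reached 1 TPM in fewer than 4 of the 8 sham replicates of the 2 segments. They passed the filter on low values only with obstructed values, which favours a rise, so nothing is read from their calls. In cTAL 1 of the 162 genes from that list was called, the organic anion carrier Slc22a8 (OAT3), at 0, 1.59, 1.78 and 1.11 TPM in sham and 24.6, 16, 1.7 and 16.8 TPM in UUO (2.61, SE 0.66, adjusted p = 0.0333). UUO replicate 3 lay within the sham range, and the call was lost in 7 of 8 refits (adjusted p up to 0.0861). Slc22a8 too passed the filter in cTAL only with obstructed values, since sham replicate 1 was at 0 TPM, and nothing is read from its call. Slc3a1 and Slc7a13 had log2 changes of 2.17 and 1.87 in cTAL and were not called there (adjusted p = 0.157 and 0.208). Red blood cell markers (4 genes) summed to 25.4 to 1187 TPM in CCD sham and 1494 to 7895 TPM in CCD UUO, where all 4 rose, and 3 of 7 macrophage markers rose in CCD. Smooth muscle and fibroblast markers (6 genes) summed to 0.395 to 6 TPM in CCD sham and 6.96 to 46.3 TPM in CCD UUO, with 1 of 2 tested higher (Tagln, 3.02). This sum was 0.97 and 0.395 TPM in sham replicates 2 and 4, so Tagln passed the filter only with obstructed values. Nothing is read from its call. Connecting tubule markers (3 genes) summed to 377 to 958 and 292 to 1579 TPM, with 1 of 2 tested higher (Klk1, 1.42). The part of RNA from any of these cells in the rises was not tested.

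**Figure D4:**
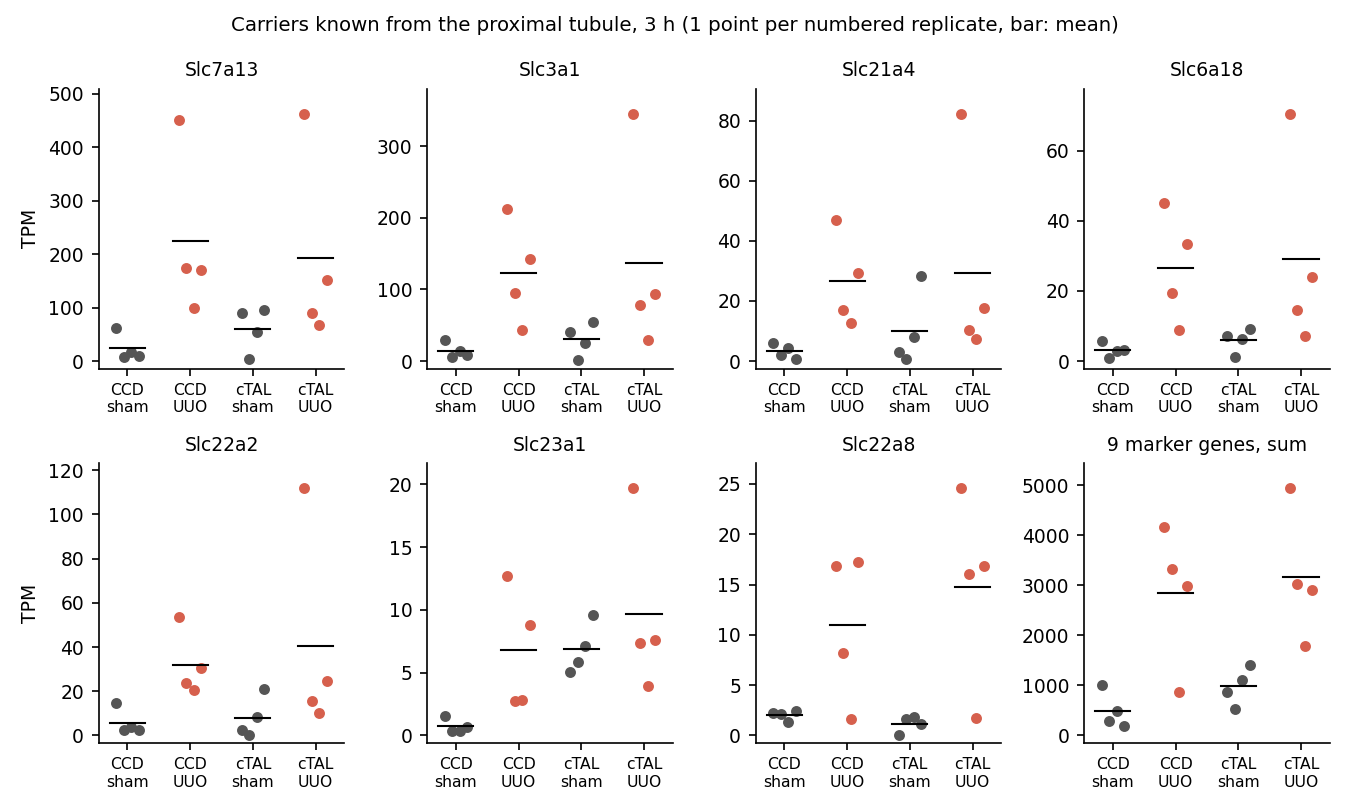
TPM at 3 h of 7 carriers known from the proximal tubule and, at lower right, the sum of 9 proximal tubule marker genes, by segment and arm, with 1 point per numbered replicate (dark grey sham, red UUO) and a bar at the mean. Replicate 1, the leftmost point of each arm, is the highest obstructed point in both segments for Slc7a13, Slc3a1, Slc21a4, Slc6a18, Slc22a2, Slc23a1 and the marker sum, and for Slc22a8 in cTAL.

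The falls in CCD were spread over amino acid, vesicular, choline, mitochondrial and Golgi carriers. The largest was that of Slc6a17, a vesicular carrier of neutral amino acids, at 7.41, 8.35, 6.5 and 9.52 TPM in sham and 2.75, 2.31, 1.81 and 1.38 TPM in UUO (log2 change -1.47, SE 0.20, adjusted p = 0.00546). Slc43a1 was at 4.4, 8.13, 8.65 and 18.6 TPM in sham and 2.77, 2.58, 3.3 and 2.46 TPM in UUO (-1.41, SE 0.34, adjusted p = 0.0268). Slc18b1, a vesicular polyamine carrier, was at 15.7 to 19.3 TPM in sham and 5.64 to 7.74 TPM in UUO (-1.20, SE 0.15, adjusted p = 0.00405). None of these 3 genes had an overlap between arms. The calls of Slc6a17 and Slc18b1 held in all refits, and that of Slc43a1 was lost in 4 of 8 (adjusted p up to 0.0693). Slc15a2 (PEPT2), which recovers small peptides, was at 18.8 ± 0.954 TPM in sham and 8.58 ± 4.37 TPM in UUO (-1.20, SE 0.32, adjusted p = 0.0373), lost in 6 of 8 refits (up to 0.0966).

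Slc2a1 (GLUT1), a facilitative glucose carrier, fell in CCD. It was at 91.1, 96.9, 83.8 and 74.6 TPM in sham and 69.9, 48.4, 44.5 and 39.5 TPM in UUO (log2 change -0.80, SE 0.17, adjusted p = 0.0193). The arms did not overlap, and the call was lost without sham replicate 1, sham replicate 2 or UUO replicate 2 (adjusted p up to 0.0639). In cTAL it was at 29.8 to 42.9 TPM in sham and 28.6 to 55.9 TPM in UUO (0.07, SE 0.24, adjusted p = 0.878).

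Of the 35 mitochondrial carriers tested in CCD 4 fell and 1 rose, where 8.04% of all genes tested fell and 5% rose. Among the falls were Slc25a43 (41.4 ± 1.96 TPM in sham and 22 ± 4.59 TPM in UUO, log2 change -0.92), the basic amino acid carrier Slc25a29 (-0.80) and the glutamate carrier Slc25a22 (-0.73). The abundant ADP/ATP and phosphate carriers were not called. Of the 7 choline, fatty acid and lipid carriers 3 fell, all of the choline-like Slc44 family: Slc44a2 (-0.78), Slc44a3 (-0.60) and Slc44a4 (-0.40, from 125 ± 9.43 to 94.2 ± 11.3 TPM). All 7 of that group had a change below 0, as did 107 of the 153 genes tested here, and the median of all genes was -0.14. Of 19 tested Slc35 and Slc37 genes 5 fell and 0 rose, and 18 had a change below 0. Besides Slc35b2 and Slc35b3 these were Slc35g2 (-0.95), Slc35f6 (-0.56) and the CMP-sialic acid carrier Slc35a1 (-0.44). The riboflavin carrier Slc52a2 (-0.71) and the Golgi zinc carrier Slc30a6 (-0.52) also fell. Of these, Slc25a43 held its call in all 8 refits, Slc35g2 and Slc30a6 lost it in 2 (without sham replicate 2 or 4), and the others lost it in 4 to 7, with adjusted p up to 0.12.

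Principal cell markers moved with the falls in CCD. Their sum was 15907 to 18653 TPM in sham and 5503 to 10052 TPM in UUO, and 5 of 8 were called lower and 0 higher, among them Aqp2 with a log2 change of -1.24. Intercalated cell markers (6 genes) summed to 4377 to 6764 TPM in sham and 4405 to 7075 TPM in UUO, with 0 called. Slc4a9, the intercalated cell exchanger, was at 188 to 313 TPM in sham and 178 to 264 TPM in UUO (-0.06, SE 0.19, adjusted p = 0.879). The part of a smaller share of principal cell RNA in the falls was not tested.

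Besides Slc25a25 and Slc22a8, 8 genes rose in cTAL: Slc16a1, Slc16a3, Slc38a1, Slc7a1, Slc25a33, Slc22a5, Slc31a2 and Slc9a3r1. Slc16a1 (MCT1), which moves lactate and pyruvate with a proton, was at 2.13, 2.13, 5.21 and 2.73 TPM in sham and 11.1, 15.8, 5.88 and 12.2 TPM in UUO (log2 change 1.58, SE 0.36, adjusted p = 0.0221). Slc16a3 (MCT4) was listed at 0, 1.36, 0.26 and 1.23 TPM in sham and at 4.06, 3.89, 1.72 and 2.72 TPM in UUO (1.31, SE 0.36, adjusted p = 0.043). The arms did not overlap in either gene, and the calls were lost in 5 and 7 of 8 refits (adjusted p up to 0.0654 and 0.113). Slc16a3 reached 1 TPM in too few sham replicates to pass the filter on low values without its obstructed values. That favours a rise, so nothing is read from its call. In CCD Slc16a3 was at 17.3, 48.3, 45.5 and 51.5 TPM in sham and 11.8, 8.35, 38.3 and 20.4 TPM in UUO, which overlap (-1.14, SE 0.47, adjusted p = 0.133).

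Slc38a1 (SNAT1), a sodium-coupled glutamine carrier, was at 1.77, 2.97, 3.71 and 2.22 TPM in cTAL sham and 7.51, 14.9, 11.8 and 6.32 TPM in UUO (log2 change 1.56, SE 0.33, adjusted p = 0.018, held in all refits). Slc7a1 (CAT1), the arginine and lysine carrier, was at 0.35 to 0.54 TPM in sham and 1.31 to 3.85 TPM in UUO (1.27, SE 0.29, adjusted p = 0.0221, and up to 0.0633 in the 5 refits that lost it). The arms were apart in both genes. Slc7a1 was under 1 TPM in every sham replicate, so it passed the filter on low values only through the obstructed arm, and it was also called with no such filter. In CCD their log2 changes were 0.48 and 0.54 and were not called (adjusted p = 0.26 and 0.0695). Slc25a33, a mitochondrial pyrimidine nucleotide carrier, was at 0.95 to 1.32 TPM in cTAL sham and 2.16, 13.3, 16.7 and 3.74 TPM in UUO (1.90, SE 0.52, adjusted p = 0.0424), where UUO replicates 2 and 3 were far above 1 and 4. The call was lost in 7 of 8 refits (up to 0.0997). Not every sham replicate reached 1 TPM, so Slc25a33 too passed the filter only through the obstructed arm, and nothing is read from its call. The carnitine carrier Slc22a5 (OCTN2) rose by 1.31 (adjusted p = 0.0426), a call lost in every refit (up to 0.0994).

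Slc31a2, a copper carrier of internal membranes, rose by 0.90 in cTAL (SE 0.23, adjusted p = 0.0349). It was at 41.9, 41.8, 43 and 53.5 TPM in sham and 50.9, 106, 95.7 and 98.5 TPM in UUO, where UUO replicate 1 lay below sham replicate 4, and the call was lost in 7 of 8 refits (up to 0.0902). Slc9a3r1 (NHERF1), a scaffold that anchors carriers at the luminal membrane and no carrier itself, was at 40.5, 48.1, 63.2 and 35.3 TPM in sham and 94.4, 106, 84.5 and 111 TPM in UUO (1.09, SE 0.19, adjusted p = 0.00908), and its call held in all refits. Besides the genes that fell in both segments and Slc35b1, 2 genes fell in cTAL. The iron importer Slc11a2 (DMT1) was at 31.2 to 49.5 TPM in sham and 11.7 to 26.3 TPM in UUO (-1.16, SE 0.26, adjusted p = 0.0216, lost in 4 of 8 refits, up to 0.068). Slc10a7 was at 2.47 to 5.99 and 0.82 to 1.67 TPM (-1.17, SE 0.31, adjusted p = 0.0387, lost in 7, up to 0.113). Neither gene had an overlap between arms. In cTAL 3 of 18 tested Slc35 and Slc37 genes fell and 0 rose, and 16 had a change below 0. Of all genes tested 7.64% fell there, and 79 of the 152 tested genes described here had a change below 0. Macrophage markers (7 genes) summed to 708 to 1346 TPM in cTAL sham and 131 to 439.8 TPM in UUO, and endothelial markers (5 genes) to 63.2 to 364 and 54.8 to 91.7 TPM. Of these, 3 of 7 macrophage markers and 3 of 4 tested endothelial markers fell. The part of these cells in the falls was not tested.

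**Figure D5:**
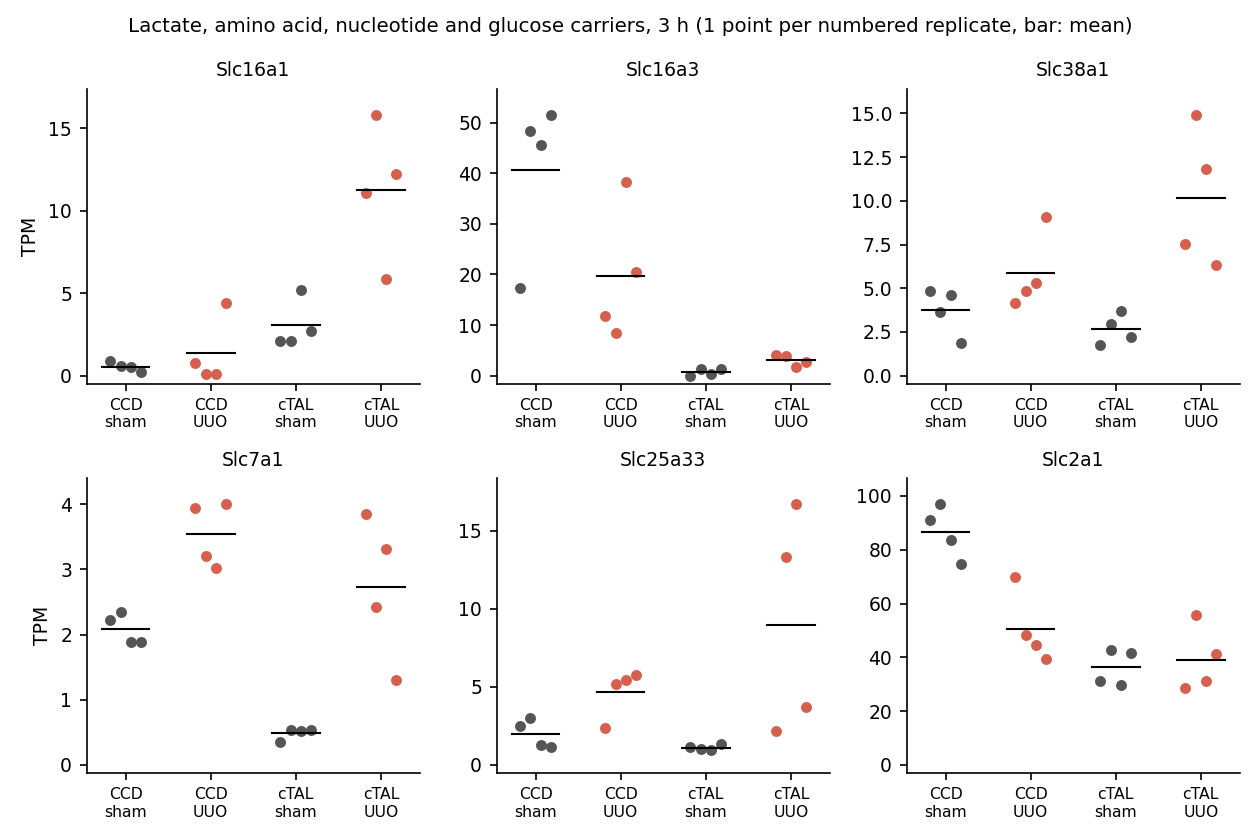
TPM at 3 h of Slc16a1, Slc16a3, Slc38a1, Slc7a1, Slc25a33 and Slc2a1 by segment and arm, with 1 point per numbered replicate (dark grey sham, red UUO) and a bar at the mean. The first 5 have no overlap between arms in cTAL, and Slc2a1 has none in CCD.

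Promoter sequences are shown for 4 genes that rose and held a searched motif, and for Slc46a3, the largest called fall in cTAL. They are the 250 bases before the start of the gene, 5′ to 3′, from RefSeq on the build GRCr8, and capitals mark a motif. The motifs, searched on both strands in those 250 bases and the next 50, were the amino acid response element TTGCATCA, the core of the tonicity element TGGAAA, AP-1 as TGACTCA or TGAGTCA, the NF-kB core GGGACTTTC and the cyclic AMP response element TGACGTCA. The last was added after the changes were seen. Promoters matched 126 of the 162 genes and 32 of the 40 genes called in either segment at 3 h.
Slc25a25 (chr3:36116582-36116831, minus strand): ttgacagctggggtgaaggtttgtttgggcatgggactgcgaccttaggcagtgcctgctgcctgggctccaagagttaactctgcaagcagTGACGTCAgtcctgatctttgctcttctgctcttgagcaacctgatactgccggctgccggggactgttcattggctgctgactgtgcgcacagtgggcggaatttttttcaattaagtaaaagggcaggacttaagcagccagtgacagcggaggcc
Slc25a33 (chr5:165502974-165503223, minus strand): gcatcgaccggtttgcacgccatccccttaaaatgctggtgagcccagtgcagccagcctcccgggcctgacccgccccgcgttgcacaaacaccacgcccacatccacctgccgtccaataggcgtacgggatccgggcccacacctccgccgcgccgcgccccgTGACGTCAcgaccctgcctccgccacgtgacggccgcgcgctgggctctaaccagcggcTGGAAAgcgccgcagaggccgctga
Slc16a3 (chr10:106712078-106712327, plus strand): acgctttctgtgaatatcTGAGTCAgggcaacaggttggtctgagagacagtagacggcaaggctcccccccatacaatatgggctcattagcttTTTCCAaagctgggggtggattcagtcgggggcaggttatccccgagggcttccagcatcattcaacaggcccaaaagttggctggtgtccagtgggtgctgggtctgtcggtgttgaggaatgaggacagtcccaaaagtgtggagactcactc
Slc38a1 (chr7:129681402-129681651, minus strand): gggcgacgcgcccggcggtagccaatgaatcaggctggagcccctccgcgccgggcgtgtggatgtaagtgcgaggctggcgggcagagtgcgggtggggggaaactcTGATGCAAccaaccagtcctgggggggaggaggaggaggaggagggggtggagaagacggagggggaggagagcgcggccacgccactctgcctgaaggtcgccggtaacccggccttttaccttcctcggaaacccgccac
Slc46a3 (chr12:12176584-12176833, plus strand): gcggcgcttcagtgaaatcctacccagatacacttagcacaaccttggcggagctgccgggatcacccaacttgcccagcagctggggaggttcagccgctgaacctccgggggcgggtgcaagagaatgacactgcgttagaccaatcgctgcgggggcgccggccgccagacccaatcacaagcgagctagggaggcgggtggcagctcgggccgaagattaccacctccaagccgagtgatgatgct
The capitals of Slc25a25 are a cyclic AMP response element that begins 158 bases before the start, and those of Slc25a33 one at 84 bases and a tonicity core at 25 bases. In Slc16a3 they are AP-1 at 232 bases and the tonicity core in reverse at 155 bases, and in Slc38a1 the amino acid response element in reverse at 142 bases. No motif was found in the window of Slc46a3, and none of the marked motifs overlap. TGACGTCA was held by 2 of the 126 promoters, 1.59%, both of called genes, and by 1.83% of all 33469 promoters. The amino acid response element was held by 0.794% of the 126 and 0.795% of all, AP-1 by 4.76% and 4.63%, and the tonicity core by 11.9% and 22.7%. The NF-kB core was held by 0.794% and 0.326%. The 126 promoters had a median GC content of 62.5%, against 51.7% in all. A match is a description of the letters and not a sign of binding.

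Several carriers of salt, osmolytes and amino acids were not called in either segment at 3 h. The sodium-potassium-chloride cotransporter Slc12a2 (NKCC1) was at 1.42 to 2.61 TPM in CCD sham and 1.05 to 3.6 TPM in UUO (log2 change -0.03, SE 0.29). The potassium-chloride cotransporter Slc12a7 had changes of -0.18 (SE 0.21) in CCD and -0.98 (SE 0.31, adjusted p = 0.0651) in cTAL. The anion exchangers Slc26a7 and Slc26a11 had -0.78 and -0.62 in CCD and 0.03 and -1.12 in cTAL. Slc9a3 (NHE3) had 0.11 (SE 0.39) in cTAL, with 4.72 to 9.59 TPM in sham and 3.32 to 14.4 TPM in UUO. The osmolyte carriers Slc6a6 (taurine) and Slc6a12 (betaine) had -0.53 (SE 0.22) and -0.40 (SE 0.40) in CCD, and Slc6a12 had 0.77 (SE 0.58) in cTAL. The heavy chain Slc3a2 had -0.40 (SE 0.16) in CCD and 0.19 (SE 0.20) in cTAL, the amino acid carrier Slc38a2 0.30 (SE 0.20) and 0.03 (SE 0.25), and the phosphate carrier Slc20a1 0.23 (SE 0.24) and 0.22 (SE 0.39). Slc16a7 was at 81.4 to 117 TPM in CCD UUO and 134 to 217 TPM in cTAL UUO (-0.05, SE 0.20, and -0.32, SE 0.16). All these arms overlapped except those of Slc12a7 in cTAL. A call missed does not show that the level was the same.

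Whether a change differed between the segments was tested at 3 h on the change of CCD minus cTAL within the numbered animals. None of 161 tested genes was called, against 1.14% of all genes, and 37 had an unadjusted p under 0.05, against 1611 of all 11084 genes. The smallest adjusted p was that of Slc6a17 (CCD minus cTAL -1.67, SE 0.34, adjusted p = 0.051). The glutamine carrier Slc1a5 came next (-1.88, SE 0.39, adjusted p = 0.0525), at 13.9 to 59.3 TPM in cTAL sham and 35.7 to 111 TPM in cTAL UUO, with an overlap, and not called in either segment alone. Slc16a3 had the largest difference (-2.45, SE 0.58, adjusted p = 0.0761). These 3 were singled out after their values were seen. For Slc25a25 the difference was -0.66 (SE 0.39, adjusted p = 0.491), for Slc35b3 -0.13 (SE 0.25, adjusted p = 0.862) and for Slc2a1 -0.87 (SE 0.32, adjusted p = 0.238). A gene called in CCD alone or in cTAL alone is therefore not shown to respond in that segment only.

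Genes that work beside these carriers were counted in lists at 3 h. Of all genes tested 5% rose and 8.04% fell in CCD, and 4.06% rose and 7.64% fell in cTAL. The median log2 changes of all genes were -0.14 in CCD and -0.12 in cTAL. Among genes of the amino acid response, which the factor Atf4 drives, 5 of 15 rose and 0 fell in cTAL, namely Atf4 (log2 change 1.58), Trib3, Chac1, Mthfd2 and Slc7a1. In CCD 2 of 14 rose and 0 fell, Atf4 (0.62) and Chac1 (1.33). The list medians over the genes tested were 1.16 and 0.16, and Slc7a1 was tested in cTAL only because of its obstructed values. Chac1 was too low in sham to be tested between the sham segments, so in both segments it too passed the filter only with obstructed values. That favours a rise, and nothing is read from these calls of Slc7a1 and Chac1. Among partner proteins of carriers 4 of 17 rose and 1 fell in cTAL, where the kinase Sgk1 rose by 2.64, and 2 rose and 2 fell in CCD. Sgk1 was also called for the difference between segments (-2.03, adjusted p = 0.0116). Of the genes of lactate and glucose metabolism 3 of 13 fell in CCD, namely Ldha (-0.44), Pkm and Slc2a1, while in cTAL 2 of 14 rose, the lactate carriers Slc16a1 and Slc16a3. Slc16a3 passed the filter in cTAL only with obstructed values, so nothing is read from its call. Of the osmolyte and tonicity genes Hspa1b rose in both segments (1.49 in CCD and 3.17 in cTAL) and Aqp2 fell in CCD, with no other of the 8 tested in CCD and 7 in cTAL called.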

How the data were processed

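RNA was sequenced from microdissected CCD and cTAL of sham and UUO rats, 48 libraries in all. The labels' protocols name the SMARTer V4 kit for cDNA and Nextera XT for the libraries. STAR 2.7.3, RSEM 1.3.3 and the build Rnor_6.0 are named in the submitters' processing notes. The authors deposited TPM per gene in a separate table for each time, so levels were not compared between times. TPM keep no depth, so no interval or limit that needs it is given. Whether the libraries mark strand is not given in the sources used here.

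For each CCD number the mean of log2(TPM + 1) over its 2 libraries was taken, a scale that understates changes of low genes. Genes at 1 TPM or more in at least 4 of the 8 replicates compared entered limma 3.58.1 (R 4.3.3), with a trend of variance on level and Benjamini-Hochberg adjustment over all genes tested. SE is limma's. The method was tested on simulated data. Genes were matched between tables by Ensembl identifier. All 162 were found at 3 h, 3 of them under another name. No 2 libraries held identical values. At 30 min in CCD, the deviations of UUO and sham replicates with the same number had correlations of 0.188, 0.148, 0.115 and 0.229. In cTAL at 30 min they were -0.113, -0.196, -0.233 and 0.179, so a pairing by number is not shown. The values printed for CCD at 30 min are from the fit without a block, and a block on the number also called 0 of the carriers.

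Named genes were the 10 largest rises and falls among called genes, the 6 largest segment differences each way, the 10 highest in each segment and a set list, some of which are not reported here. The genes and lists were chosen with earlier results of these data known. Family groups follow the Slc family number, with exceptions by substrate. The alternatives were other pseudocounts, filters and member thresholds, rescaling, removal of mitochondrially encoded genes, single libraries, a replicate block, no trend, and leaving out replicates or doubtful libraries. The 8 whole-kidney samples were not analysed here. Figures were drawn with matplotlib 3.10.9.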

Additional observations from a re-analysis of the deposited data

Results flagged for a closer look

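At 3 h 4 values stood apart from the other 3 of their group by more than Dixon's critical share of the group's range, among 92 groups of 4 examined, where chance gives about 1 in 20. All were in cTAL. Slc7a1, the arginine and lysine carrier, was at 0.35 TPM in sham replicate 1 and at 0.54, 0.52 and 0.54 TPM in the others. Slc31a2, the copper carrier, was at 53.5 TPM in sham replicate 4 against 41.9, 41.8 and 43 TPM. In UUO replicate 1 it was at 50.9 TPM against 106, 95.7 and 98.5 TPM, so both of its arms held such a value and these values are the ones that overlap. Slc35b3, a Golgi sulphate donor carrier, was at 14.2 TPM in UUO replicate 3 against 16.9, 16.6 and 17 TPM, all of them below the sham values.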

How the results depend on the processing

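Across the alternatives no called gene changed direction. Of 1220 values of named genes under another setting, 1018 kept their direction and side of the threshold, 171 lost their call, 2 gained one and 29 changed sign, all 29 of genes without a call. The count of genes called in CCD at 30 min rose from 0 to 16 with library 1 alone, while that of all genes rose from 1 higher and 2 lower to 7 and 949. In CCD at 3 h 28 became 17 with the replicate block, 17 with library 1 alone and 13 with library 2 alone, and 11 to 35 when a replicate was left out. All genes went from 526 higher and 847 lower to 390 and 380 with the block, 183 and 493 with library 1, and 248 and 242 with library 2. In cTAL at 3 h 18 became 11 without a filter on low values, 7 with the replicate block, and 8 without the cTAL sham replicate of highest Aqp2 (sham replicate 1), and 7 to 17 when a replicate was left out. All genes there went from 407 higher and 766 lower to 241 and 519 without the filter, 252 and 328 with the block, and 246 and 500 without sham replicate 1. Among fits without 1 replicate, the lowest counts of carriers were those without sham replicate 2 in CCD and without sham replicate 2 or 4 in cTAL. The difference between segments went from 0 to 2 with a pseudocount of 5 TPM or without CCD libraries above 5000 TPM of Umod. It went to 1 with a mean of at least 5 TPM, median-of-ratios rescaling, the replicate block, library 1 alone or limma without a trend, and to 0 to 2 when a replicate was left out. All genes went from 65 higher and 61 lower to 95 and 81 with that pseudocount, 95 and 53 without those Umod-rich libraries, and 9 and 20 with the block. The cause was not tested. The count between sham segments, 76, stayed within 1.5 times.

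At 3 h the correlations of same-numbered UUO and sham replicates ranged from -0.218 to 0.12 in CCD and from -0.116 to 0.05 in cTAL. The replicate block moved the split of the carriers to 7 higher and 10 lower in CCD and 3 higher and 4 lower in cTAL. It moved that of all genes to 390 and 380 in CCD and 252 and 328 in cTAL. Without the sham animals as pairs (no replicate block), 72 genes were called between the segments.

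Sign changes in CCD came with median-of-ratios rescaling for Slc16a7 (0.10), Slc12a2 (0.06) and Slc4a9 (0.09), and with library 2 alone for Slc16a7 (0.15) and Slc6a12 (0.41). Slc12a2 came to 0.00 without the libraries rich in Umod. Without 1 replicate the ranges in CCD were -0.23 to 0.07 for Slc16a7, -0.29 to 0.10 for Slc12a2 and -0.15 to 0.10 for Slc4a9. In cTAL they were -0.19 to 0.21 for Slc26a7, -0.09 to 0.15 for Slc38a2, -0.11 to 0.20 for Slc2a1, -0.17 to 0.44 for Slc9a3 and -0.11 to 0.50 for Slc20a1. Without the cTAL sham replicate of highest Aqp2 Slc26a7 was at -0.07 and Slc9a3 at -0.05. Unknown depth limits all values near 1 TPM.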
